A study of Homo sapiens with 12 samples.

Results

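The 81 cytosolic ribosomal protein genes are the genes for the proteins of the 40S and 60S ribosomal subunits. They were taken from the 25369 gene symbols of the count table by name: RPL or RPS, a number and at most 1 of the letters A, X or L, together with RPLP0, RPLP1, RPLP2 and RPSA, and with no pseudogene. Of the 81, 32 belong to the 40S subunit, 46 to the 60S subunit and 3 to the P stalk, and 76 had enough counts to be tested. RNA came from tumours of MDA-MB-231, an established human line of triple-negative breast cancer, grown in the mammary fat pad of mice that were treated by intraperitoneal injection. SB202190, which inhibits p38 MAP kinases, was given to the p38i group at 1 mg/kg/day. A compound that inhibits EZH2, a histone methyltransferase, was given to the EZH2i group at 10 mg/kg/day. The labels spell that inhibitor EPZ-6428 for the single agent and EPZ-6438 where they name the combination. The combination group received both inhibitors, and the control group received the vehicle of DMSO, PEG 300 and Tween 80. Each group gave 3 libraries from 10 mice per group, all tumours came from the same cell line, and the labels state neither the strain and age of the mice nor the length of treatment. Each library is named by its group and its tumour number. The exceptions are p38i col5 and p38i col6, whose table columns the labels do not tie to single tumours.

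Ribosomal proteins are made in near equal numbers for each ribosome, and the cell holds this balance mostly by degrading proteins that find no place in a subunit. Their mRNAs begin with a 5′ terminal oligopyrimidine tract (TOP), a cytosine followed by a run of pyrimidines, through which mTOR signalling and the protein LARP1 control their translation and stability. Growing tumours depend on ribosome supply, and several ribosomal proteins also act outside the ribosome, among them RPL5 and RPL11, which bind MDM2 together with 5S rRNA. In these tumours edgeR's test and limma-voom each called 0 ribosomal protein genes in the 6 comparisons. Over all genes tested they called 0% to 1.77% and 0% to 1.32%. At an unadjusted p under 0.05 edgeR gave 2 to 12 of the 76 (2.63% to 15.8%), against 3.12% to 18.4% of all genes. DESeq2 called 3 (RPS4X, RPL12 and RPS6), all in p38i relative to control tumours, among 595 genes (4.75%) in all. Most of the 76 genes had fold changes below 1 in p38i, EZH2i and combination tumours relative to control tumours, and the sizes were mostly small.

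The bases around the start of 10 of these genes are shown because the results below turn on them. RPS4X, RPL12, RPS6 and RPS12 were each among the 5 most negative fold changes of at least 1 comparison with control. RPS25 varied most between libraries and RPL24 least, and RPL27 and RPS29 had their highest mean level in the combination group. For RPL27 and RPS29, control 2-1 was as high as combination libraries. RPS27 and RPS27L are a pair of paralogues. Each line gives 40 bases before and 20 bases from the annotated start, 5′ to 3′ on the gene's own strand. Sequences and starts are those of RefSeq on GRCh38.p14, whereas the counts were made on hg19, and no start was measured here. Capitals mark a run of at least 5 C or T bases that begins with C at the annotated start.
RPS4X: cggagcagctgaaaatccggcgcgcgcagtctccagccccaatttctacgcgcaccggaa
RPL12: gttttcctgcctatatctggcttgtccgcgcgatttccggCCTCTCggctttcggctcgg
RPS6: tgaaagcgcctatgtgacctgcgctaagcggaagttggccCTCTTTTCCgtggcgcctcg
RPS12: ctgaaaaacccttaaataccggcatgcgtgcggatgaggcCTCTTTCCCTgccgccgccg
RPS25: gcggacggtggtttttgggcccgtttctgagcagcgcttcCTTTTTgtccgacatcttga
RPL24: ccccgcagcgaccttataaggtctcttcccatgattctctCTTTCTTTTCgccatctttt
RPL27: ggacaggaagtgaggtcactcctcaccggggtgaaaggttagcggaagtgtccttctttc
RPS27: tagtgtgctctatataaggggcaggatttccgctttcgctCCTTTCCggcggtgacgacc
RPS27L: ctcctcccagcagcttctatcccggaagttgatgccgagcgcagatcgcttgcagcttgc
RPS29: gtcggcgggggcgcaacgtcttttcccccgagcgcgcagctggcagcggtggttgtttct

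These windows lie at chrX:72277229-72277288 on the minus strand for RPS4X, chr9:127451387-127451446 (minus) for RPL12, chr9:19380217-19380276 (minus) for RPS6 and chr6:132814529-132814588 (plus) for RPS12. They lie at chr11:119018324-119018383 (minus) for RPS25, chr3:101686699-101686758 (minus) for RPL24 and chr17:42998379-42998438 (plus) for RPL27. The remaining windows lie at chr1:153990722-153990781 (plus) for RPS27, chr15:63157458-63157517 (minus) for RPS27L and chr14:49598691-49598750 (minus) for RPS29. The run was 10 bases long in RPS12 and RPL24, 9 in RPS6, 7 in RPS27 and 6 in RPL12 and RPS25. RPS4X, RPL27, RPS27L and RPS29 had no such run at the RefSeq start. Of the 64 ribosomal protein genes found in the RefSeq promoter table, 46 (71.9%) had one, against 5.14% of all 27305 genes in that table. The letters CCGGAAG, on either strand between 250 bases before and 50 bases after the start, occurred in 35.9% of the 64 genes and 12.2% of all genes. GCCATNTT occurred in 15.6% of the 64 genes and 7.97% of all genes, and TATANA in 20.3% of the 64 genes and 22.6% of all genes.

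The smallest library, EZH2i 6-1, had 2208771 counts and the largest, combination 9-1, had 4467942, and 16389 to 17549 genes had at least 1 count. VIM, which is high in this mesenchymal line, lay between 3774 and 6376 CPM (counts scaled to library size with TMM factors), while ESR1 stayed between 1.24 and 13.1 CPM and ERBB2 between 16.6 and 30.5 CPM. PGR lay between 2.69 and 7.16 CPM. CDH1, which was also expected to be low, varied far more, from 0.249 to 55.4 CPM. Summed markers of fibroblasts held 0.0282% to 0.114% of counts. The 12 skeletal muscle markers held 0.160% in p38i col6 and at most 0.0149% in every other library. Over the 500 most variable genes, control 1-1 and control 1-3 stood apart from the other libraries on component 1, which held 31.9% of the variance, with scores of 34.9 and 19.1 against a range of -19.0 to 7.17. The comparisons with control were therefore also run with both left out, which leaves control 2-1 alone, and the medians and the values that moved most are given beside the results. Nothing in the labels says how the 3 tumours of a group were chosen from its mice, and no removal of mouse reads is recorded. Counts of these conserved genes therefore cannot be told apart by tumour and host.

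Together the 81 genes held 8.89%, 8.05% and 7.46% of all counts in p38i libraries, 10.2%, 7.46% and 8.17% in EZH2i libraries, 8.68%, 8.30% and 8.16% in combination libraries, and 9.21%, 9.19% and 9.55% in control libraries. The group means were 8.13% ± 0.72 in p38i, 8.61% ± 1.42 in EZH2i, 8.38% ± 0.26 in the combination and 9.32% ± 0.20 in control tumours (SD, n = 3 each). All 3 p38i and all 3 combination libraries lay below all 3 control libraries, whereas the EZH2i group held the highest library, 5-3, and also 5-4, which shared the lowest place with p38i col6. The 95% Wilson interval was 7.43% to 7.49% for EZH2i 5-4 and 7.44% to 7.49% for p38i col6, so these libraries did not differ beyond counting error, which is all that the intervals cover. In bulk tumours, fewer cells that express these genes and less of their RNA per cell cannot be told apart. MALAT1, a nuclear RNA that alone took 1.47% to 3.88% of counts, moved with the same groups. It held 2.26% ± 0.47 in p38i, 2.33% ± 0.75 in EZH2i, 2.03% ± 0.35 in the combination and 3.57% ± 0.40 in control libraries, and its part in the result was not tested. The balance of the subunits was steady, with 0.875 to 0.929 counts for 40S genes per count for 60S genes over the 12 libraries.

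**Figure D1:**
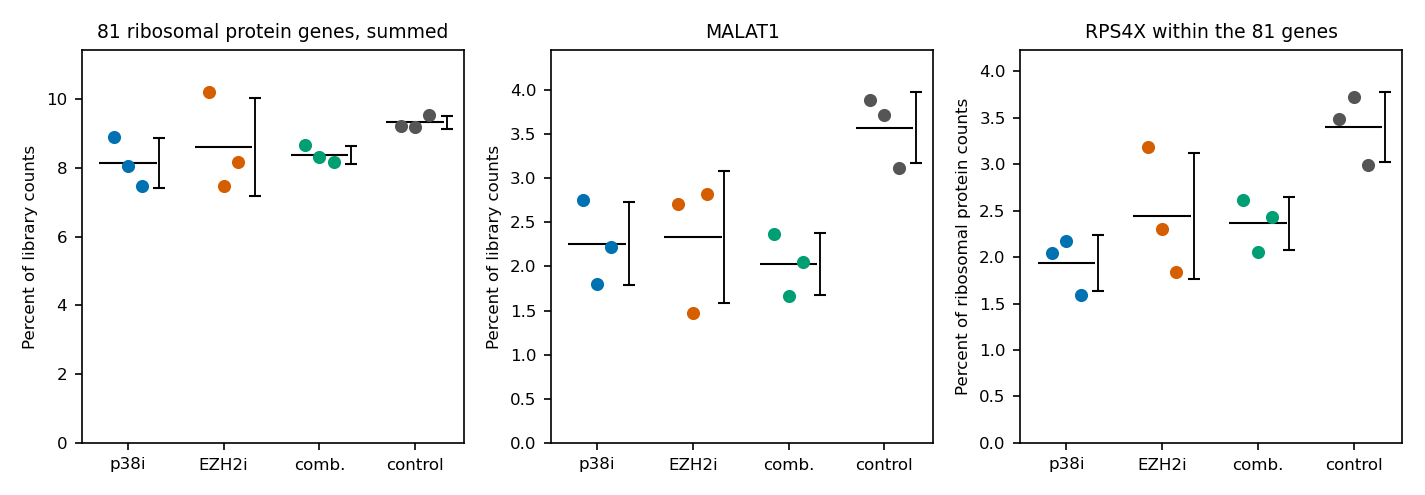
Percent of library counts held by the 81 ribosomal protein genes (left) and by MALAT1 (middle), and percent of ribosomal protein counts that were RPS4X (right), each point 1 library, with horizontal lines at group means and error bars of 1 SD (n = 3; comb., combination). The control libraries sit between 9.19% and 9.55% on the left, above all p38i and combination libraries, and all 3 control libraries are the highest for MALAT1.

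Within the family, the counts were spread unevenly. RPS29, a small zinc-binding protein of the 40S subunit, supplied 7.61% of all ribosomal protein counts, RPS27A 4.89% and RPL37A 3.81%. Among the 76 genes tested, RPL39L, RPL36A and RPS25 had the lowest mean CPM. These are shares of counts that were not divided by gene length, so they say which genes were counted most and do not order the genes by mRNA level. RPS29 was measured at 6966, 5054 and 5078 in p38i, 7626, 5188 and 5687 in EZH2i, 7298, 7947 and 6947 in combination, and 5729.7, 6196 and 8304 in control tumours (CPM). Its share of the ribosomal protein counts was 8.93% ± 0.71 in the combination, and 7.00% ± 0.68, 7.11% ± 0.13 and 6.99% ± 1.26 in p38i, EZH2i and control tumours (SD, n = 3 each). By library this share was 8.42% in control 2-1 and 8.37% in combination 8-1, so the control and combination groups overlapped.

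The 76 genes were about as steady as other genes of high level. Their median SD of log2(CPM + 0.5) over the 12 libraries was 0.25, against 0.33 for all 12514 genes tested and 0.24 for the 2270 genes with a mean of at least 100 CPM. RPL24, which forms a bridge between the 60S and 40S subunits, was the steadiest, at 820.4, 808 and 762 in p38i, 848, 792 and 798 in EZH2i, 825, 937 and 831 in combination, and 761, 830.4 and 886 in control tumours (CPM), with a highest value 1.23 times the lowest. RPS25, a 40S protein that several viral internal ribosome entry sites need, was the least steady, at 110.4, 54.4 and 169.5 in p38i, 59.4, 33.1 and 196 in EZH2i, 65.3, 107 and 119.6 in combination, and 54.1, 63.0 and 312 in control tumours (CPM). Its highest library, control 2-1, had 9.45 times the level of its lowest, EZH2i 5-4, and each of the p38i, EZH2i and control groups held both low and high libraries.

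Most of this spread followed 2 patterns across libraries. Component 1 of a principal component analysis of the 76 genes held 40.9% of their variance. RPS4X had its largest positive weight, EZH2i 5-3 scored highest (2.69), the 3 control libraries followed (0.84 to 2.06), and p38i col6 scored lowest (-2.21). Component 2 held 36.5%, with its largest weights on RPS25, RPS15A, RPL30 and RPL41, and it set control 2-1 (2.78) against EZH2i 5-4 (-3.44). RPL30, a 60S protein, shows the second pattern with 1581, 1241 and 1606 in p38i, 1196, 789.7 and 1729.9 in EZH2i, 1237, 1684 and 1526 in combination, and 1154, 1152 and 2214 in control tumours (CPM). RPS15A, a 40S protein, was highest in the same library, with 403 CPM in control 2-1 against 178 and 198 CPM in control 1-1 and 1-3. For RPS25, RPS15A and RPL30, the gap between control 2-1 and the other control tumours was larger than any gap between group means.

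**Figure D2:**
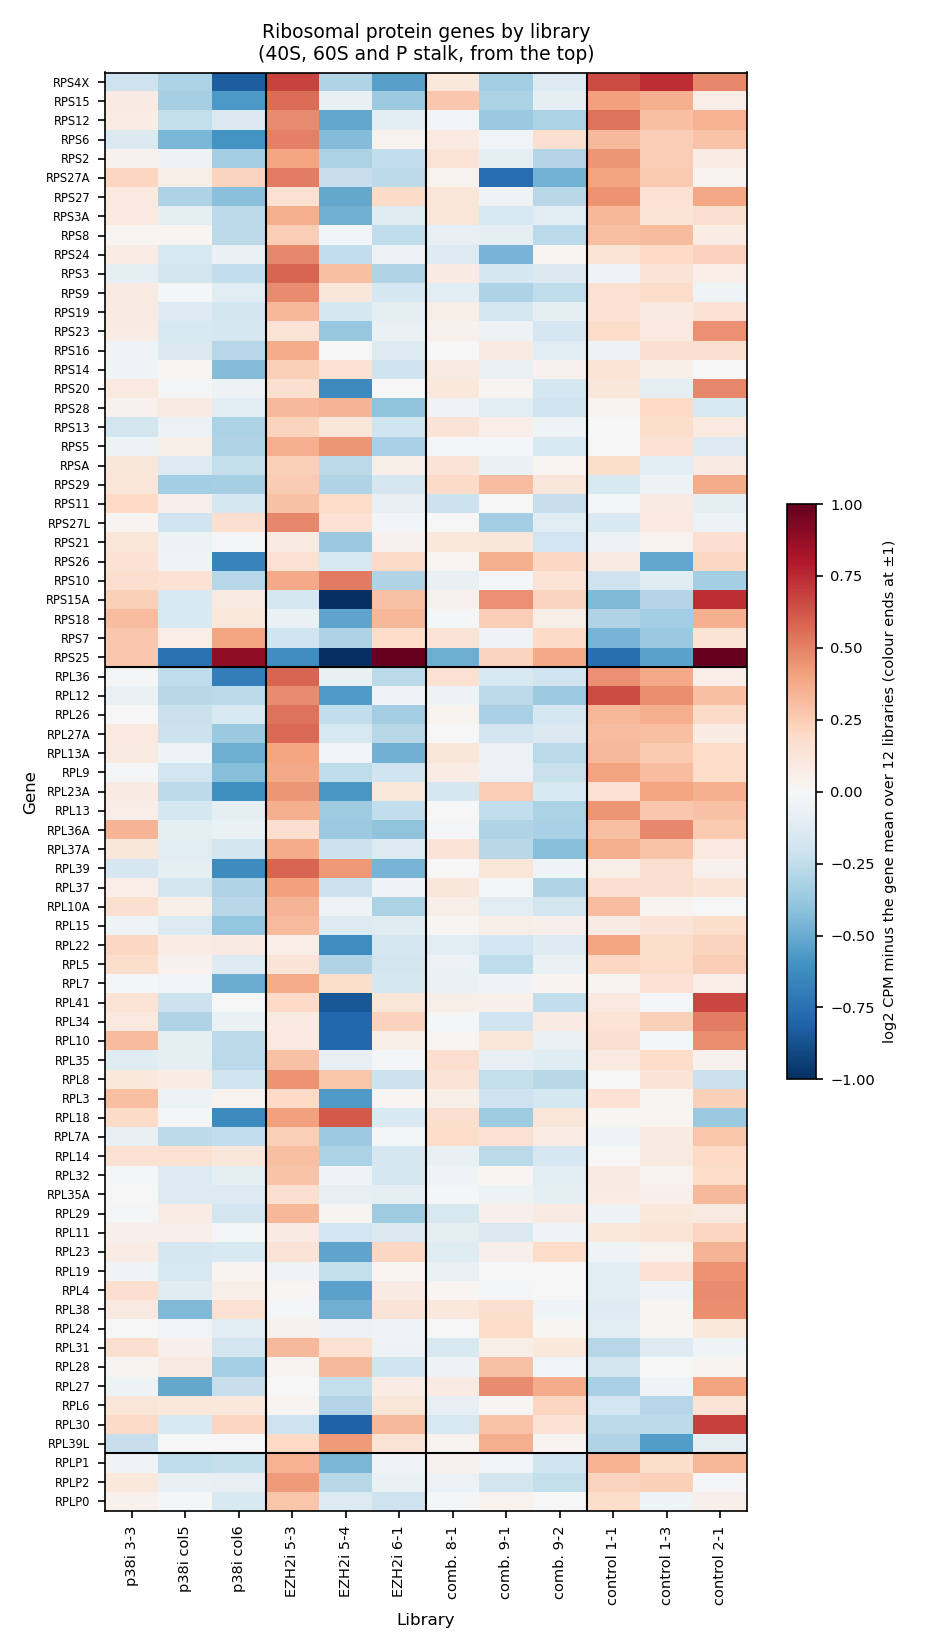
Level of 75 of the 76 tested ribosomal protein genes in each library, as log2(CPM + 0.5) minus the gene's mean over 12 libraries (red higher, blue lower), with genes ordered within each subunit by their weight on component 1 and black lines between groups. EZH2i 5-3 and the controls are red in most rows near the top of each block, and RPS25 exceeds the colour range in several libraries.

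Treatment with the p38 inhibitor alone was compared with the vehicle to see what it changes. Of the 76 genes, 65 (85.5%) had a negative log2 fold change in p38i relative to control tumours, against 50.1% of all 12514 genes tested. The median was -0.21 for the 76 genes and 0.00 for all genes on the log2 scale. All 3 p38i libraries lay below all 3 control libraries for 30 of the 76 genes (39.5%), against 12.5% of all genes, and above them for 0 of 76, against 12.3%. By edgeR's quasi-likelihood test with Benjamini-Hochberg adjustment, 0 of the 76 passed an adjusted p of 0.05, while 221 genes (1.77%) passed over the whole table. At an unadjusted p under 0.05, 11 of the 76 were lower, against 9.3% of all genes tested, and 1 was higher, against 9.08%. Together these were 15.8% of the 76, against 18.4% of all genes. DESeq2 called 3 of them (RPS4X, RPL12 and RPS6) among 595 genes (4.75%) in all, and limma-voom called 0 among 165 (1.32%).

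RPS4X, a 40S protein encoded on the X chromosome, had the most negative fold change. Its level was 1833, 1696 and 1196 CPM in p38i tumours and 3324, 3526 and 2952 CPM in control tumours (log2 fold change -1.05, SE 0.27, adjusted p = 0.0656, edgeR). The groups did not overlap. Within the ribosomal protein counts alone, where library scaling plays no part, RPS4X held 1.94% ± 0.30 in p38i and 3.40% ± 0.37 in control tumours (SD, n = 3 each). With a fit of the p38i and control groups alone, RPS4X, RPL12 and RPS6 passed, at adjusted p of 0.0218, 0.0417 and 0.0484 (edgeR), among 242 genes (2.03%) in all. In the fit of all groups, RPS4X was the 1 member that passed without EZH2i 5-3 (among 236 genes, 1.84%) or without EZH2i 6-1 (among 191 genes, 1.5%). RPS4X, RPL12 and RPS6 passed without EZH2i 5-4 (among 446 genes, 3.47%), and RPS4X and RPS7 without control 2-1 (among 568 genes, 4.42%). Over the 12 fits that each left out 1 library, the adjusted p of RPS4X ran from 0.0144 to 0.229.

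RPS6, a 40S protein that S6 kinases phosphorylate downstream of mTOR, had 1654, 1329 and 1209.8 CPM in p38i tumours and 2289, 2162 and 2229.8 CPM in control tumours (log2 fold change -0.67, SE 0.20, adjusted p = 0.0965, edgeR). RPL12, which sits at the base of the 60S stalk, had 892, 772 and 774 CPM in p38i tumours and 1467, 1289 and 1150.2 CPM in control tumours (log2 fold change -0.68, SE 0.21, adjusted p = 0.105, edgeR). For both genes every p38i library lay below every control library. RPL36 (-0.61) and RPL23A (-0.55), a 60S protein at the exit tunnel, had the next most negative log2 fold changes. At the other end, RPS7, a 40S protein that can bind MDM2, had 745, 647 and 813 CPM in p38i tumours and 446, 477 and 679 CPM in control tumours (log2 fold change 0.46, SE 0.18, adjusted p = 0.194, edgeR). Its ranges overlapped, as control 2-1 lay above p38i col5. RPS10 (0.24), RPL39L (0.24) and RPL6 (0.21) were also among the 5 highest on the log2 scale. With p38i col5 and col6 both left out, which leaves 1 p38i library, the median over the 76 genes was -0.07. With control 1-1 and 1-3 both left out, the median was -0.26 and RPL6 stood at -0.04.

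**Figure D3:**
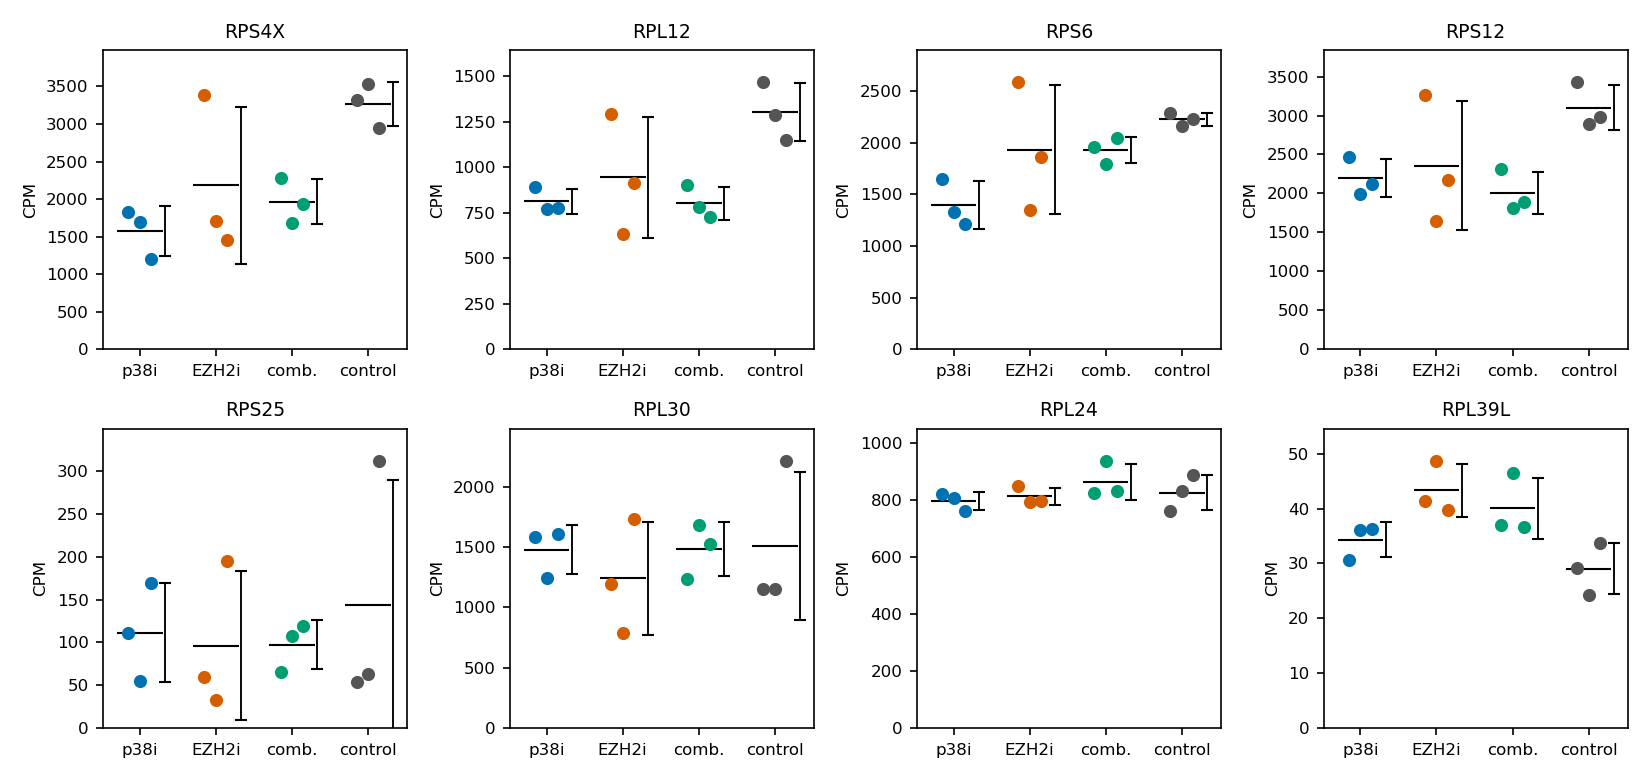
CPM of 8 ribosomal protein genes in each library, with horizontal lines at group means and error bars of 1 SD (n = 3; comb., combination), cut off at 0 for RPS25. RPS4X, RPL12, RPS6 and RPS12 are lower in all p38i libraries than in all control libraries, RPS25 and RPL30 have 1 high control library, RPL24 hardly varies, and RPL39L is higher in all EZH2i and combination libraries than in all control libraries.

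Treatment with the EZH2 inhibitor alone gave more scattered values. Of the 76 genes, 55 (72.4%) had a negative log2 fold change in EZH2i relative to control tumours, against 49% of all genes tested, with a median of -0.14 for the 76 and 0.01 for all genes. All 3 EZH2i libraries lay below all 3 control libraries for 4 of the 76 (5.26%), against 8.09% of all genes, and above them for 1 (1.32%), against 8.32%. By edgeR 0 of the 76 passed, with 27 genes (0.216%) called over the whole table. At an unadjusted p under 0.05, 7 of the 76 were lower, against 7.29% of all genes, and 2 higher, against 7.43%. Together these were 11.8% of the 76, against 14.7% of all genes. DESeq2 called 0 of them among 225 genes (1.8%), and limma-voom 0 among 16 (0.128%). The median moved to -0.27 without EZH2i 5-3, to -0.03 without 5-4, to -0.06 without 6-1, to -0.07 without control 2-1 and to -0.19 with control 1-1 and 1-3 both left out.

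RPL39L was the 1 gene above all controls. It is the paralogue of RPL39, a short protein in the wall of the exit tunnel, and is known for its high level in testis. RPL39L had 41.5, 48.7 and 39.7 CPM in EZH2i tumours and 29.1, 24.3 and 33.7 CPM in control tumours (log2 fold change 0.58, SE 0.19, adjusted p = 0.183, edgeR). RPS10 (0.46), RPL18 (0.43), RPL31 (0.30) and RPS27L (0.25) had the next highest log2 fold changes, none of which passed the test. RPS25 had the most negative log2 fold change in EZH2i tumours (-0.61), with an SE of 0.82, and it was 0.69 without control 2-1 and -1.75 with control 1-1 and 1-3 both left out. RPS4X had 3385, 1714 and 1454 CPM in EZH2i tumours (log2 fold change -0.58, SE 0.27, adjusted p = 0.333, edgeR). EZH2i 5-3 thus lay within the range of the controls given above and the other EZH2i libraries well below it, and without 5-3 RPS4X was called, at -1.02 and an adjusted p of 0.0467 (edgeR), among 55 genes (0.429%). RPL22, an RNA-binding 60S protein, had 330.1, 205 and 280.2 CPM in EZH2i tumours and 415, 357 and 368 CPM in control tumours (log2 fold change -0.48, SE 0.16, adjusted p = 0.194, edgeR), with no overlap. RPL36A (-0.54) and RPL12 (-0.46) were also among the 5 most negative.

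In tumours given both inhibitors, 61 of the 76 genes (80.3%) had a negative log2 fold change relative to control tumours, against 49.6% of all genes tested. The median was -0.19 for the 76 and 0.01 for all genes. All 3 combination libraries lay below all 3 control libraries for 29 of the 76 genes (38.2%), against 11.2% of all genes, and above them for 2 (2.63%), against 10.7%. By edgeR 0 of the 76 passed, and 1 gene (0.00799%) was called over the whole table. At an unadjusted p under 0.05, 11 of the 76 were lower, against 8.67% of all genes, and 1 higher, against 7.66%. Together these were 15.8% of the 76, against 16.3% of all genes. DESeq2 called 0 of them among 148 genes (1.18%), and limma-voom 0 among 1. The median was -0.13 without combination 9-2 and -0.13 without control 2-1. With control 1-1 and 1-3 both left out it was -0.20.

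RPS4X had 2281, 1675 and 1939 CPM in combination tumours (log2 fold change -0.73, SE 0.27, adjusted p = 0.238, edgeR), below every control library. RPL12 had 901, 779 and 726 CPM in combination tumours, against 1467, 1289 and 1150.2 CPM in control tumours (log2 fold change -0.70, SE 0.21, adjusted p = 0.196, edgeR). For both genes the combination libraries overlapped the range of the p38i libraries given above. RPS12, a 40S protein whose introns hold small nucleolar RNAs, had 2310.2, 1817 and 1891 CPM in combination tumours and 3430.3, 2892 and 2987 CPM in control tumours (log2 fold change -0.63, SE 0.21, adjusted p = 0.22, edgeR). RPS27A, which is made as a fusion with ubiquitin, had 4275, 2459.7 and 3005 CPM in combination tumours and 5521, 5009 and 4248 CPM in control tumours (log2 fold change -0.60, SE 0.23, adjusted p = 0.242, edgeR). RPS12 did not overlap between the groups, while combination 8-1 reached the range of the controls for RPS27A. RPS25 (-0.57) completed the 5 most negative, and it was 0.73 without control 2-1 and -1.69 with control 1-1 and 1-3 both left out. RPL39L had 36.9, 46.5 and 36.7 CPM in combination tumours (log2 fold change 0.46, SE 0.18, adjusted p = 0.253, edgeR), above every control library. RPS7 (0.31), RPL27 (0.28) and RPS26 (0.24) were also among the 5 highest log2 fold changes. Each of these 3 turned slightly negative, between -0.09 and -0.01, when control 1-1 and 1-3 were both left out.

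**Figure D4:**
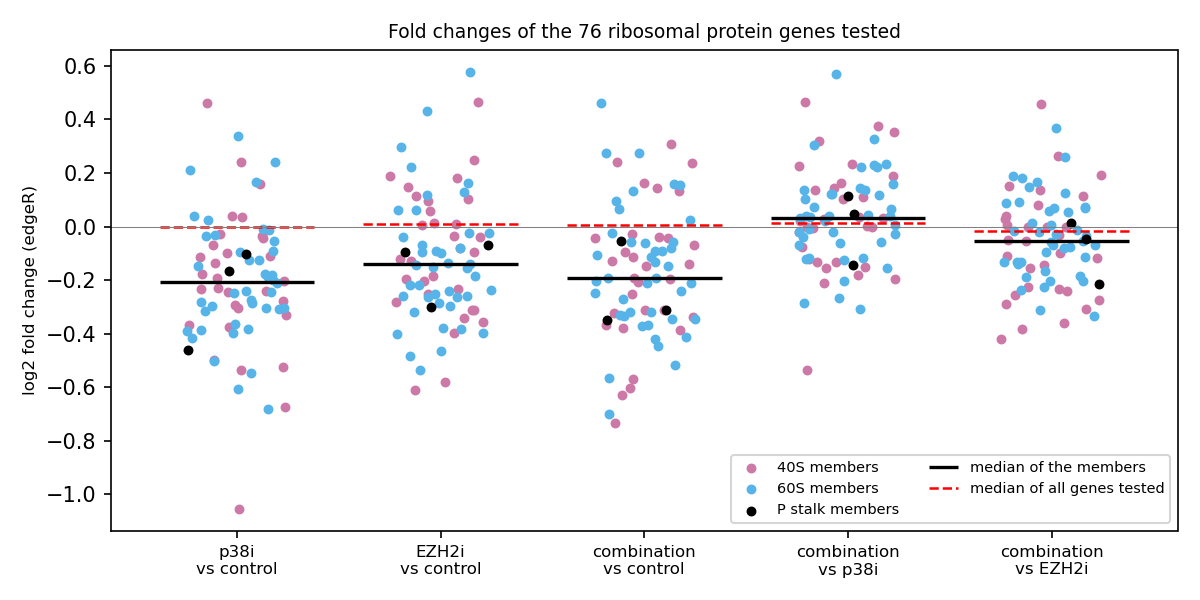
Log2 fold change of each of the 76 tested ribosomal protein genes in 5 comparisons (points coloured by subunit), with the median of the 76 (solid line) and of all genes tested (dashed line). The medians are -0.21, -0.14 and -0.19 in the comparisons with control and 0.03 and -0.05 in the comparisons with the single agents; comparisons with control share the same 3 control libraries.

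The combination was also set against each single agent. Relative to p38i tumours, 31 of the 76 genes (40.8%) had a negative log2 fold change, against 48.6% of all genes, with a median of 0.03 for the 76. Relative to EZH2i tumours, 49 of 76 (64.5%) were negative, against 52.3% of all genes, with a median of -0.05. In both comparisons edgeR called 0 of the 76 and 0% of all genes, and limma-voom did the same. DESeq2 called 0 of the 76 in both, among 7 genes (0.0559%) relative to p38i and 1 (0.00799%) relative to EZH2i. At an unadjusted p under 0.05, 2 of the 76 were higher than in p38i tumours, against 3.52% of all genes, and 1 was lower, against 4.28%. Relative to EZH2i tumours 0 were higher, against 1.45% of all genes, and 2 lower, against 1.67%. In either direction these shares of all genes were 7.81% and 3.12%. All 3 combination libraries lay below all 3 p38i libraries for 4 of the 76, against 8.18% of all genes, and above them for 8, against 6.77%. They lay below all 3 EZH2i libraries for 0 of the 76, against 3.77% of all genes, and above them for 1, against 3.34%. The medians carried no stable sign: the median relative to p38i was -0.13 with col5 and col6 left out, and that relative to EZH2i was 0.11 without EZH2i 5-3.

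RPL27, a 60S protein, had the largest difference from p38i tumours. Its level was 1050.2, 1377 and 1279 CPM in combination tumours, 955, 694 and 847 CPM in p38i tumours, 990.0, 839 and 1044 CPM in EZH2i tumours and 790.0, 962 and 1309 CPM in control tumours. Every combination library lay above every p38i library (log2 fold change 0.57, SE 0.19, adjusted p = 0.582, edgeR), but 1 control library was as high as the combination. RPS9, a 40S protein, had 353, 306 and 318 CPM in combination tumours and 527, 410.1 and 337 CPM in EZH2i tumours (log2 fold change -0.38, SE 0.16, adjusted p = 0.991, edgeR), and these ranges overlapped.

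The interaction asks whether the combination differs from the sum of both single effects on the log2 scale. It was positive for 57 of the 76 genes and negative for 19, against 50.7% negative among all genes, with a median of 0.17. By edgeR 0 of the 76 passed, and 3 genes (0.024%) were called over the whole table. At an unadjusted p under 0.05, 3 of the 76 were positive, against 6.19% of all genes, and 0 negative, against 6.94%, with 13.1% of all genes in either direction. DESeq2 called 0 of the 76 among 209 genes (1.67%), and limma-voom 0 among 3 (0.024%). The log2 interaction was 0.90 (SE 0.38) for RPS4X, 0.67 (SE 0.28) for RPS6 and 0.66 (SE 0.27) for RPL27, with adjusted p of 0.324, 0.324 and 0.31 by edgeR. Without EZH2i 5-3, RPS4X passed, among 42 genes (0.328%). The median was 0.08 without EZH2i 5-4, 0.10 without p38i col6, 0.28 without EZH2i 5-3 and 0.22 with control 1-1 and 1-3 both left out.

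By subunit, the values differed little. In p38i relative to control tumours the median log2 fold change was -0.20 over 31 genes of the 40S subunit, -0.23 over 42 of the 60S subunit and -0.17 over 3 of the P stalk. In EZH2i tumours the same medians were -0.09, -0.15 and -0.10, and in combination tumours -0.15, -0.19 and -0.31. The 40S genes below -0.5 were 4 in p38i tumours, 2 in EZH2i tumours and 4 in combination tumours, and the 60S genes 4, 1 and 3.

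The P stalk proteins recruit translation factors to the ribosome. RPLP1 had 1271, 1088 and 1103 in p38i, 1657, 946 and 1266 in EZH2i, 1339, 1273 and 1132 in combination, and 1657, 1470.2 and 1641 in control tumours (CPM), and the p38i libraries lay below the controls (log2 fold change -0.46, SE 0.18, adjusted p = 0.185, edgeR). RPLP0 and RPLP2 had log2 fold changes between -0.31 and -0.05 in the 3 comparisons with control, with SEs of 0.15 to 0.17. RPL5 and RPL11, the MDM2-binding pair, were among the steadier genes. RPL5 had 1893, 1728 and 1531 in p38i, 1836, 1363 and 1478 in EZH2i, 1615, 1409.8 and 1601 in combination, and 1939, 1906 and 1985 in control tumours (CPM), and RPL11 had 1219.9, 1222 and 1169 in p38i, 1249, 1033 and 1067 in EZH2i, 1100.3, 1068 and 1148 in combination, and 1272, 1296 and 1373 in control tumours (CPM). Both lay lower in all p38i, EZH2i and combination libraries than in all control libraries. Their log2 fold changes were -0.18 and -0.13 in p38i and -0.33 and -0.25 in combination tumours, and neither passed the test.

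RPS19, whose loss of 1 copy is the best known cause of Diamond-Blackfan anaemia, had 1039, 889.7 and 861 in p38i, 1228, 866 and 918 in EZH2i, 1014, 865 and 910.0 in combination, and 1076, 1034 and 1076 in control tumours (CPM). All combination libraries lay below all controls by a small margin, while p38i 3-3 reached the range of the controls. RPL13A, which also takes part in silencing inflammatory mRNAs, had 1745, 1589 and 1165 in p38i, 2156, 1609.8 and 1171 in EZH2i, 1775, 1571 and 1361 in combination, and 2046, 1964 and 1863 in control tumours (CPM), again with p38i and combination below control and EZH2i 5-3 above. RPSA, first described as a laminin receptor, had a log2 fold change of -0.14 in p38i tumours, -0.03 in EZH2i tumours and -0.03 in combination tumours. RPL3, a protein of the peptidyl transferase centre, stood at -0.04, -0.22 and -0.24 in the same order. RPL10, one of the last proteins to join the 60S subunit, stood at -0.21, -0.38 and -0.19, and RPL41, the smallest ribosomal protein, at -0.31, -0.40 and -0.33. None of these genes passed edgeR's test after adjustment in any comparison with control.

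Paralogues within the family were read as pairs. RPS27 had 512, 386 and 357 in p38i, 532, 336 and 546 in EZH2i, 519, 467 and 394 in combination, and 652, 528 and 626 in control tumours (CPM). Its paralogue RPS27L, a target of p53 in human cells, had 187, 159.8 and 205 in p38i, 256, 203 and 179.8 in EZH2i, 183, 145 and 170.1 in combination, and 165, 196 and 177 in control tumours (CPM). Their log2 fold changes were -0.53 and 0.03 in p38i, -0.35 and 0.25 in EZH2i, and -0.39 and -0.11 in combination tumours, and the difference between the paralogues was not tested. RPL39 had 377, 397 and 274 in p38i, 632, 570.5 and 306 in EZH2i, 421, 459.9 and 410.4 in combination, and 440.0, 473 and 435 in control tumours (CPM). Its log2 fold changes were -0.36, 0.16 and -0.06, against 0.24, 0.58 and 0.46 for RPL39L. EZH2i 6-1 had the lowest RPL39 of its group and p38i col6 the lowest of all. A further 7 genes for ribosomal protein paralogues or fusions that the naming rule leaves out, among them RPL36AL and RPL22L1, were tested. EdgeR, DESeq2 and limma-voom each called 0 of them in any comparison with control. At an unadjusted p under 0.05 edgeR gave 0 in p38i tumours, against 18.4% of all genes. It gave 1 of the 7 (14.3%) each in the EZH2i and combination groups, against 14.7% and 16.3%.

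The 5 genes that could not be tested were nearly absent from the table. Among them, RPL21 had 0 to 2 counts per library, RPL17 2 to 13, RPL10L 0 to 11 and RPL3L 0 to 3. RPL3L and RPL10L are paralogues known from muscle and testis, and p38i col6, the library with the skeletal muscle markers, had the highest counts of both, 3 for RPL3L and 11 for RPL10L. RPL21 and RPL17 are ordinary subunit proteins. Their low counts are values of this table and not levels of their mRNAs, since many near-identical pseudogenes exist for ribosomal protein genes and the way reads with several matches were counted is not recorded. The 30 ribosomal protein pseudogene rows in the table held 0.0595% to 0.107% of counts, 2 of them were 0 in all libraries, and RPSAP58 alone had 521 to 1528 counts. Values of genes with such copies, RPSA among them, are uncertain for that reason.

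Other genes of the translation machinery were read beside them. Of 18 other genes of the TOP class, most of them translation factors but TPT1, NAP1L1, HNRNPA1, BTF3 and NACA also among them, edgeR called 0 in each comparison with control, with medians of -0.12 in p38i tumours, 0.01 in EZH2i tumours and -0.09 in combination tumours. EEF2, the translocation factor, had 601, 489.5 and 419 CPM in p38i tumours and 1107, 1027 and 813 CPM in control tumours (log2 fold change -0.96, SE 0.24, adjusted p = 0.0604, edgeR), with no overlap between the groups. Before adjustment, edgeR gave a p under 0.05 to 4 of the 18 in p38i tumours (22.2%), against 18.4% of all genes tested. The count was 0 in EZH2i tumours, against 14.7%, and 1 (5.56%) in combination tumours, against 16.3%. After adjustment DESeq2 called 1 of the 18 (5.56%), EEF2 in p38i tumours, and limma-voom 0. In that comparison DESeq2 called 4.75% and limma-voom 1.32% of all genes. Of 18 genes for translational control, edgeR called 0 as well. At an unadjusted p under 0.05 there were 3, 1 and 2 (16.7%, 5.56% and 11.1%) in the same comparisons, against the same shares of all genes. DESeq2 called 1 of these 18 (5.56%), EEF2K in p38i tumours, and limma-voom 0, against 4.75% and 1.32% of all genes in that comparison. EEF2K, the kinase that phosphorylates the EEF2 protein, had a log2 fold change of -0.77 in p38i tumours (adjusted p = 0.0656), and EIF4EBP1, a repressor of cap binding, 0.63 (adjusted p = 0.416).

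Genes of ribosome biogenesis lay on the other side of 0. Of 30 such genes, 28 had a positive log2 fold change in p38i relative to control tumours, 25 in EZH2i and 23 in combination tumours. The medians were 0.32, 0.21 and 0.19, while about as many genes of the whole table were positive as negative. By library, the median of the list relative to each gene's mean was -0.26, -0.16 and -0.09 in control 1-1, 1-3 and 2-1. It was 0.09, 0.16 and 0.23 in p38i libraries, -0.01, 0.23 and -0.17 in EZH2i libraries, and -0.06, -0.08 and 0.13 in combination libraries. EZH2i 6-1 lay below control 1-3 and 2-1, and combination 8-1 and 9-1 lay close to control 2-1. No list median with control 1-1 and 1-3 both left out is given here. POLR1C, a subunit shared by RNA polymerases I and III, was the 1 gene of the list that edgeR called in the comparisons with control, and it rose in p38i tumours. It had 42.6, 47.2 and 47.7 CPM in p38i tumours and 26.2, 24.3 and 29.2 CPM in control tumours (log2 fold change 0.78, SE 0.17, adjusted p = 0.0397, edgeR). This call was lost without any single p38i library, without control 1-1 or 1-3, and without combination 9-1, with adjusted p up to 0.171, and the adjusted p was 0.652 with control 1-1 and 1-3 both left out. DESeq2 called 2 of the 30 in p38i tumours, POLR1C and NHP2, a subunit of H/ACA particles, and limma-voom called POLR1C. Over all genes tested in that comparison, edgeR called 1.77%, DESeq2 4.75% and limma-voom 1.32%. Before adjustment, edgeR gave a p under 0.05 to 9 of the 30 (30%) in p38i tumours, against 18.4% of all genes tested. All 9 were higher, against 9.08% of all genes. In EZH2i and combination tumours it was 6 (20%) each, against 14.7% and 16.3% of all genes. EdgeR, DESeq2 and limma-voom each called 0 of the 30 in EZH2i and in combination tumours. BOP1, a 60S assembly factor, had the highest log2 fold change in p38i tumours (1.16, adjusted p = 0.0811) and NOP2 the lowest (-0.23). BYSL, a 40S assembly factor, was highest in EZH2i tumours (0.95) and NOP10, a subunit of H/ACA particles, in combination tumours (1.03). NOP14, a 40S assembly factor, was lowest in both (-0.40 and -0.77). The interaction was negative for 28 of the 30 genes, with a median of -0.47. EdgeR and limma-voom called 0 of them, and DESeq2 called POLR1C. By edgeR 8 of the 30 (26.7%) had an unadjusted p under 0.05, against 13.1% of all genes.

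Host genes of small nucleolar RNAs, many of which also have TOP starts, had medians of -0.26 in p38i, -0.27 in EZH2i and -0.17 in combination relative to control tumours over 14 genes. SNHG8 was the 1 called by edgeR, and it fell in p38i tumours, to 369, 308 and 310.5 CPM, against 696, 541 and 467 CPM in control tumours (log2 fold change -0.79, SE 0.19, adjusted p = 0.0493, edgeR). The call was lost with limma-voom (adjusted p = 0.0571), with library totals as the scaling (0.0540), and without any p38i or combination library, EZH2i 6-1, control 1-1 or control 1-3, with adjusted p up to 0.190, and the adjusted p was 0.697 with control 1-1 and 1-3 both left out. DESeq2 also called SNHG8 in p38i tumours. Over all genes tested in that comparison, edgeR called 1.77% and DESeq2 4.75%. In EZH2i and combination tumours edgeR, DESeq2 and limma-voom each called 0 of the 14. At an unadjusted p under 0.05 by edgeR there were 4 of the 14 (28.6%) in p38i tumours, against 18.4% of all genes. Of these, 3 were lower and 1 was higher. In EZH2i and combination tumours there were 2 and 5 (14.3% and 35.7%), against 14.7% and 16.3% of all genes.

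**Figure D5:**
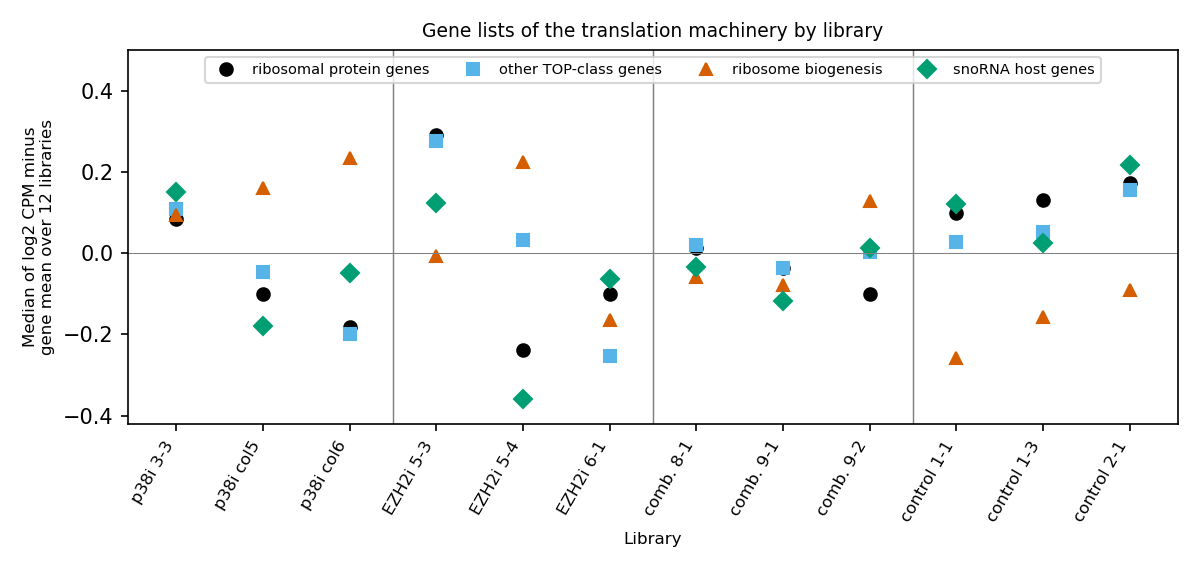
Median over each gene list, in each library, of log2(CPM + 0.5) minus the gene's mean over the 12 libraries, for the 76 ribosomal protein genes, 18 other genes of the TOP class, 30 ribosome biogenesis genes and 14 snoRNA host genes. In the control libraries the ribosomal protein genes are at 0.10 to 0.17 and the biogenesis genes at -0.26 to -0.09; EZH2i 5-3 has the highest ribosomal protein median (0.29) and EZH2i 5-4 the lowest (-0.24).

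The 61 tested genes that had a promoter entry were split by a pyrimidine run at the RefSeq start. Genes with such a run had the more negative median in each comparison with control, and this difference was not tested. In p38i relative to control tumours the median log2 fold change was -0.24 over 45 genes with such a run and -0.16 over 16 without one. In EZH2i tumours the medians were -0.14 with and -0.10 without a run, and in combination tumours -0.25 and -0.14. Both ends of the range held genes of both kinds. RPS4X, which has no run in the sequence shown above, was the most negative in p38i tumours, at -1.05, and RPL12 and RPS6, each with a run, stood at -0.68 and -0.67. RefSeq starts can differ from the start used in a cell, so no run in the window says only that these letters are not at the annotated start.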

How the data were processed

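RNA was measured in 12 xenograft tumours, 3 in each of 4 groups. The authors deposited raw counts, 1 column per library and 1 row per gene symbol, and 3 rows that named no gene held 0 counts. Per the submitters' processing notes, Trim Galore 0.5.0 and STAR 2.6.0 were used, with hg19 as the genome. The counting program, its use of strand and its treatment of reads with several matches are not given in the sources used here. More than 1 library kit is named in the labels' protocols, a SMARTer mRNA kit for whole transcripts and QuantSeq for their 3′ ends, so counts of different genes were not read as an order of mRNA levels.

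Columns were tied to samples by the column number in each label. Both remaining p38i samples name column 5, so columns 5 and 6 entered as p38i libraries without a tumour number, column 6 by elimination. No column was left unused.

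In edgeR 4.0.16 under R 4.3.3, filterByExpr left 12514 genes to test, and libraries were scaled with TMM factors (0.963 to 1.04). A quasi-likelihood model with robust estimates was fitted to all 12 libraries, and 6 two-sided comparisons were adjusted over all 12514 genes by the Benjamini-Hochberg method at 0.05. The biological coefficient of variation was 0.219. The code was first tested on simulated counts. CPM values use TMM-scaled totals, and 0.5 was added before log2. Alternatives were DESeq2 1.42.0, limma-voom (limma 3.58.1), other scalings and filters, a fit of only the groups compared, and each library left out. Leaving out control 1-1 with 1-3, and p38i col5 with col6, was chosen after seeing the data.

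The members, the gene lists and the tests were chosen with earlier results of these data known. Genes named are those with the 5 highest and 5 lowest fold changes in each comparison with control, the extremes of level, genes not tested, and a list of members with known roles. RPL24, RPL27, RPL30, RPS9, RPS15A and RPS29 as single examples were singled out for their values. Some members enter the sums and counts and are not reported here singly.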

Additional observations from a re-analysis of the deposited data

How the results depend on the processing

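Counts of ribosomal protein genes called stayed at 0 under most settings. Relative to control, p38i gave 3 with DESeq2 (among 595 genes, 4.75%) and 3 with only the 2 groups in the fit (among 242, 2.03%). With 1 library left out it gave 0 to 3, and where it gave any, 191 to 568 genes (1.5% to 4.42%) were called in all. EZH2i gave 0 to 1 with 1 library left out and the interaction 0 to 1, in both cases RPS4X without EZH2i 5-3. No other setting changed a count.

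The median log2 fold change of the 76 genes stayed negative in each comparison with control under every setting run, including library totals alone (-0.15, -0.10 and -0.13 in p38i, EZH2i and combination) and TMM factors computed without these genes (-0.20, -0.13 and -0.18). The medians of combination against the single agents lay near 0 and changed sign: relative to p38i it was -0.13 with p38i col5 and col6 left out, and relative to EZH2i it ran from -0.12 to 0.11 with 1 library left out.

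The summed share moved by more than its SD when divided by the counts outside these genes and MALAT1 (9.08% in p38i, 9.36% in combination and 10.7% in control tumours) and when RPS29 was left out (7.63% in combination and 8.66% in control tumours). The order of these groups was the same.

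Among named genes, 651 of the recomputed values kept direction and side of the threshold, 14 moved past it, 21 fell short of it and 6 changed sign. With control 1-1 and 1-3 left out, RPL6 (-0.043) changed sign in p38i, and RPS26 (-0.013), RPL27 (-0.091) and RPS7 (-0.046) in combination tumours. With 1 library left out, RPS25 ran from -1.67 to 0.69 in EZH2i and from -0.95 to 0.73 in combination tumours, positive without control 2-1. With control 1-1 and 1-3 left out it was -1.75 and -1.69. The cause was not tested.

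No paired analysis was possible because the groups share no tumour numbers. Each group had 3 libraries, with 2208771 to 4467942 counts each. Pooled over the 4 groups, the median level of the 76 genes had a within-group SD of 0.157 on the log2 scale. The medians in the comparisons with control were -0.14 to -0.21. The groups were not equally spread: relative to each gene's mean, library medians ran from -0.24 to 0.29 in EZH2i and from -0.18 to 0.08 in p38i. They ran from -0.10 to 0.01 in combination and from 0.10 to 0.17 in control libraries.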
